A study of Mus musculus with 35 samples.

Results

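RNA-seq of 5 mice with closed head injury and IL-4 MSC treatment, taken at 3 weeks post-injury (wpi), was compared with that of 5 sham mice, gene by gene. These 10 libraries, 1 per mouse, are part of the 34 libraries of the table. All mice were male C57BL/6N animals, and the labels give the tissue of every sample as left cortex, while the study's methods describe the region around the injection, cut from the hemisphere. Sham mice underwent the surgery without the impact and had no treatment, whereas the IL-4 MSC mice were injured and then injected into the left hippocampus. The injected mesenchymal stromal cells (MSCs) were primary cells of the same strain from a single vendor lot, transfected with synthetic mRNA that makes them release interleukin-4 for a short time. Injury, injection and cells thus differ together between IL-4 MSCs and Sham. Of the sham mice, replicates 0 and 1 carry the label of week 1 and replicates 2, 3 and 4 that of week 3. They form a single group. The number that opens the sample names differs between IL-4 MSCs and Sham, so whatever it marks and the group cannot be told apart. It also differs between the sham mice of week 1 and those of week 3. Injured mice that received PBS (4 mice) or unmodified MSCs (5 mice), also at 3 wpi, were set beside IL-4 MSCs and Sham. Each of these groups has a number of its own, with the same limit. The authors excluded a further PBS library because its transcript counts were anomalous.

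After a head injury, microglia and infiltrating phagocytes take up debris, complement proteins tag material for removal, and astrocytes become reactive. Interferons raise the genes of antigen presentation, with which cells display peptides to T cells on MHC class I and class II molecules. The striatum, which lies under the cortex, is built mainly of projection neurons that carry the dopamine receptors D1 (direct pathway) or D2 (indirect pathway). Its marker genes are used here as a sign of striatal RNA in a sample. In bulk tissue, a change in the number of cells of a type and a change in the RNA per cell cannot be told apart.

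The 10 libraries held between 30783526 and 41554322 estimated counts, and a floor of 3 counts for detection equals 0.0722 to 0.0975 CPM (counts scaled to the size of the library), for counting error only. Markers of several regions were found in all of these samples besides those of cortex. The summed level of 12 thalamic genes was between 191 and 1021 CPM in IL-4 MSCs and between 426 and 974 CPM in Sham, and that of 15 hippocampal genes between 623 and 925 CPM and between 750 and 967 CPM. The labelled cortex was also present, with summed cortical pyramidal markers of 1606 to 1952 CPM in IL-4 MSCs and 1707 to 2046 CPM in Sham.

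Between IL-4 MSCs and Sham, 472 genes were higher, 2.76% of the 17131 tested, and 260 were lower, 1.52%. These are genes with an adjusted p under 0.05 in edgeR's quasi-likelihood test, for which all 34 libraries shared an estimate of the spread. The values of the mice did not overlap in 345 genes that were higher in every IL-4 MSC mouse (2.01%) and in 226 that were lower in every one (1.32%). Immune genes and striatal genes were both among the higher genes. Of 250 immune genes tested, gathered in 12 lists, 96 were higher and 1 was lower, with a median log2 fold change of 0.57 over the 250 beside 0.010 over all genes. Of 42 striatal genes, 25 were higher and 0 lower, with a median of 1.15. The total depended on single libraries. Without IL-4 MSC replicate 4 it fell to 173 higher and 60 lower genes, and without replicate 3 to 273 and 107. Without IL-4 MSC replicate 1 it rose to 865 higher and 859 lower. Leaving out a sham mouse of week 1 gave 188 higher and 137 lower genes for replicate 0, and 217 and 109 for replicate 1. With only the 2 groups in the fit, 73 genes were higher and 29 lower.

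**Figure D1:**
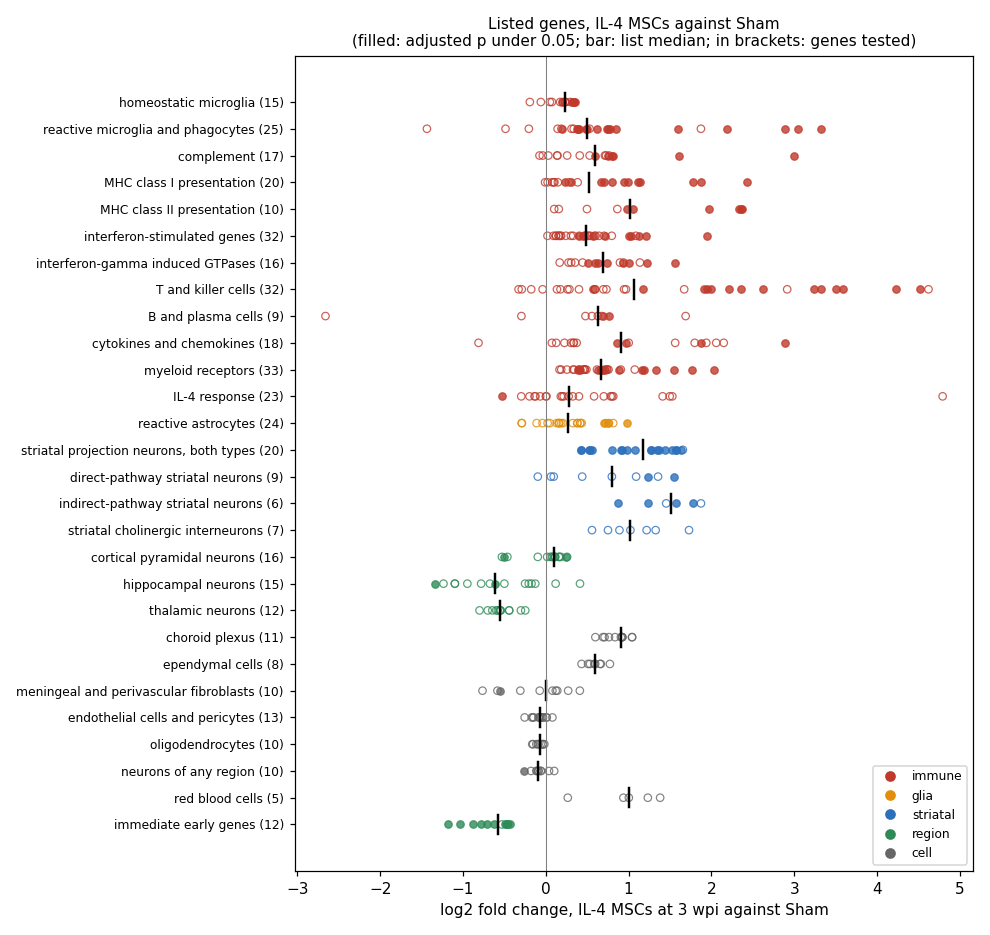
Log2 fold change of IL-4 MSCs at 3 wpi against Sham (x axis) for every tested gene of 28 lists (y axis, with the number of genes tested), 1 circle per gene, filled where the adjusted p was under 0.05; the bar is the median of the list. Immune lists had medians between 0.23 and 1.07, the 4 striatal lists between 0.80 and 1.51, and the immediate early genes lay left of 0.

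The dopamine D1 receptor gene Drd1 (ENSMUSG00000021478, chromosome 13, 54051183 to 54055705 of GRCm38) marks direct-pathway neurons. Its level was 49.3, 13.9, 52.4, 104 and 66.0 CPM in IL-4 MSC replicates 0 to 4 and 7.99, 8.56, 26.1, 26.4 and 29.2 CPM in Sham replicates 0 to 4. All IL-4 MSC mice but replicate 1 lay above all sham mice, and replicate 1 lay inside the sham range. The log2 fold change of Drd1 was 1.55 (SE 0.41, adjusted p = 0.0284). Drd2 (ENSMUSG00000032259, chromosome 9, 49340627 to 49408177), the D2 receptor gene of indirect-pathway neurons, had 41.9, 6.54, 38.4, 72.2 and 48.9 CPM in IL-4 MSCs against 5.79, 5.88, 16.4, 19.95 and 22.3 CPM in Sham. Its log2 fold change was 1.58 (SE 0.42, adjusted p = 0.0279), and again only replicate 1 of the IL-4 MSC mice reached into the sham values. Adora2a (ENSMUSG00000020178, chromosome 10, 75316877 to 75334784) encodes an adenosine receptor, also of indirect-pathway neurons. It had 66.9, 12.2, 61.2, 104 and 74.8 CPM in IL-4 MSCs and 1.92, 1.70, 24.6, 28.1 and 31.7 CPM in Sham. Its log2 fold change of 1.87 (SE 0.63) did not pass the threshold (adjusted p = 0.0831). Without IL-4 MSC replicate 1 it was 2.13 and passed (adjusted p = 0.0233). Against the sham mice of week 3 it was 1.17 and did not pass (adjusted p = 0.379), nor did it with only the 2 groups in the fit (adjusted p = 0.225). Ppp1r1b (ENSMUSG00000061718, chromosome 11, 98348404 to 98357796) encodes DARPP-32, the phosphatase inhibitor through which dopamine acts in both types of projection neuron. Its 340 ± 164 CPM in IL-4 MSCs (SD, n = 5) stood against 118 ± 66.5 CPM in Sham (SD, n = 5), a rise of 1.53 on the log2 scale (SE 0.40, adjusted p = 0.0277).

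**Figure D2:**
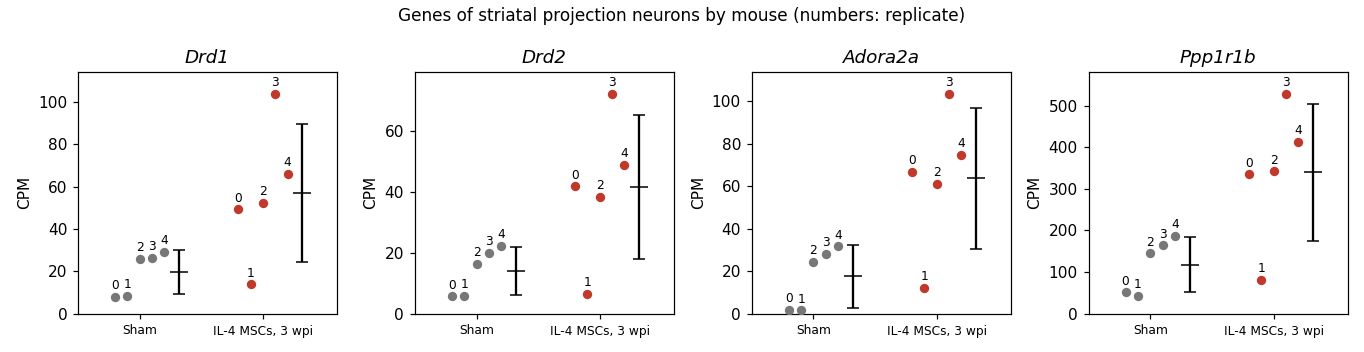
CPM of Drd1, Drd2, Adora2a and Ppp1r1b in each mouse (points, numbered by replicate), with the mean and SD of the group beside them (n = 5). Sham replicates 0 and 1 lie below Sham replicates 2, 3 and 4, and IL-4 MSC replicate 1 lies within the sham range in all 4 genes.

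The striatal lists differed in how many genes passed. Of 20 genes of projection neurons of both types, 19 were higher, among them Lrrc10b at 1.34 (SE 0.27, adjusted p = 0.0040). Foxp1, a transcription factor of projection neurons and of cortical neurons, rose by 0.52 (SE 0.10, adjusted p = 0.0034). In the direct-pathway list 2 of 9 genes were higher, Drd1 and the substance P precursor gene Tac1 (1.23, SE 0.37, adjusted p = 0.0490). In the indirect-pathway list 4 of 6 were higher, Drd2, the receptor genes Gpr6 and Gpr52, and the transcription factor gene Sp9 (0.87, SE 0.18, adjusted p = 0.0052). The enkephalin precursor gene Penk, also of the indirect pathway, had 1.45 (SE 0.46) and did not pass (adjusted p = 0.0655). None of 7 genes of striatal cholinergic interneurons passed in edgeR's test, with 1 at an unadjusted p under 0.05 and 1 higher with limma, and their median was 1.02. In all 25 striatal genes that were higher, IL-4 MSC replicate 3 was the highest and replicate 1 the lowest of its group. The groups overlapped in all 25, because replicate 1 lay within the sham range, while the other 4 IL-4 MSC mice were above every sham mouse. In 23 of the 25, both sham mice of week 1 were below the 3 of week 3.

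A striatal score, the mean log2 CPM of the 20 genes of both types, summarised this for each mouse. It was 5.21 and 5.15 in the sham mice of week 1, and 6.14, 6.25 and 6.39 in those of week 3. In IL-4 MSC replicates 0 to 4 it was 7.02, 5.58, 6.98, 7.63 and 7.24. The highest score in any library of the other groups was 6.39, so that 4 IL-4 MSC mice lay above all 29 libraries of the other groups. The calls on striatal genes rested on particular libraries. Of the 25 genes, 8 remained without IL-4 MSC replicate 3 and 9 without replicate 4, 8 without Sham replicate 0 and 9 without Sham replicate 1. Against the 3 sham mice of week 3, 0 of the 42 striatal genes passed in edgeR's test, with 25 higher at an unadjusted p under 0.05, and the median log2 fold change was 0.69. Drd1 then had 1.06 (adjusted p = 0.248). With only the 2 groups in the fit, 0 passed as well, with 30 higher at an unadjusted p under 0.05, while DESeq2 on all libraries called 27 and limma 32.

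Few single markers of other regions passed edgeR's test, but hippocampal genes were lower as a list. Their median log2 fold change was -0.62, and 2 of 15 were lower by edgeR, beside 1.52% of all genes. At an unadjusted p under 0.05, 9 were lower and 1 higher, and with limma 6 were lower. With the striatal score as a covariate the median of the 15 was 0.071, with 10 of these genes positive. Against the sham mice of week 3 it was -0.40. Their mean log2 CPM was lowest in IL-4 MSC replicate 3 (3.06) and highest of that group in replicate 1 (4.74). All IL-4 MSC mice but replicate 1 lay below every sham mouse by this level. Prox1, a transcription factor of dentate granule cells, had 39.5, 78.9, 46.9, 19.8 and 41.5 CPM in IL-4 MSC replicates 0 to 4 against 56.9 to 75.0 CPM in Sham. It was highest in replicate 1, where striatal genes were lowest, and lowest in replicate 3, where they were highest. Lct, lactase, which the list holds as a marker of granule cells, fell by 1.34 (SE 0.38, adjusted p = 0.0395), with 13.4 CPM in replicate 1 and 0.873 CPM in replicate 3. Thalamic genes had a median of -0.55, and none of 12 passed in edgeR's test, with 4 lower at an unadjusted p under 0.05, whereas 6 were lower with limma. The median of these 12 genes was -0.46 with the covariate and -0.84 against the sham mice of week 3. Their mean log2 CPM was lowest in IL-4 MSC replicate 3 (3.40) and highest in replicate 1 (5.90), while in Sham it was 4.98 and 4.62 in the mice of week 1 and 5.43 to 5.83 in those of week 3. Of 16 cortical pyramidal genes, Tle4, of deep-layer neurons, was higher by 0.25 (SE 0.068, adjusted p = 0.0345) and Etv1, of layer 5, was lower by 0.50, and the median of the list was 0.094. Choroid plexus genes had a median of 0.91 and ependymal genes of 0.59. None of either list passed in edgeR's test, with 5 and 4 higher at an unadjusted p under 0.05, and with limma 0 and 3 were higher. Ttr, the transthyretin gene that marks the choroid plexus, ranged from 353 to 1211 CPM in IL-4 MSCs and from 77.9 to 837 CPM in Sham. Markers of endothelial cells (median -0.067), oligodendrocytes (-0.076), neurons of any region (-0.090) and fibroblasts (0.0024) had medians near 0, and the 5 red blood cell genes had 1.00 with no gene past the threshold by edgeR, at an unadjusted p under 0.05 or by limma. The part of these regional markers in the differences of other genes was not tested other than with a striatal score.

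Genes of antigen presentation were among the immune genes that were higher. Of 20 genes of MHC class I presentation, 12 were higher, 10 of them without overlap of the mice, and the median of the 20 was 0.53. H2-D1 (ENSMUSG00000073411, chromosome 17, 35262730 to 35267499), a class I heavy chain, had 93.6, 97.3, 81.9, 56.1 and 86.6 CPM in IL-4 MSCs and 36.1, 38.8, 36.9, 37.3 and 43.3 CPM in Sham. The lowest IL-4 MSC value was above the highest sham value, and the log2 fold change was 1.11 (SE 0.16, adjusted p = 1.46e-04). B2m, the light chain shared by all class I molecules, rose by 0.80 (SE 0.14, adjusted p = 0.0012). Nlrc5 (chromosome 8, 94434356 to 94527272), the transactivator of the class I genes, rose by 1.87 (SE 0.26, adjusted p = 1.44e-04). The peptide transporter genes Tap1 and Tap2 and the immunoproteasome genes Psmb8 and Psmb9 were also among the 12. The class I heavy chains H2-D1, H2-K1, H2-Q4, H2-Q6 and H2-Q7 are near-identical, so the division of reads among them is uncertain.

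Of 10 genes of MHC class II presentation, 6 were higher, all 6 without overlap, with a median of 1.02 over the 10. Cd74 (ENSMUSG00000024610, chromosome 18, 60803848 to 60812652), the invariant chain that guides class II molecules, had 18.5, 28.2, 12.2, 7.02 and 19.8 CPM in IL-4 MSCs and 3.44, 3.74, 3.96, 2.54 and 3.21 CPM in Sham. Its log2 fold change was 2.34 (SE 0.43, adjusted p = 0.0025). H2-Ab1 (chromosome 17, 34257689 to 34269419), a class II beta chain, rose by 2.36 (SE 0.41, adjusted p = 0.0014). For both genes the IL-4 MSC mice had the order 1, 4 and 0, or 1, 0 and 4, then 2, then 3 from high to low, with replicate 3 nearest to Sham.

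**Figure D3:**
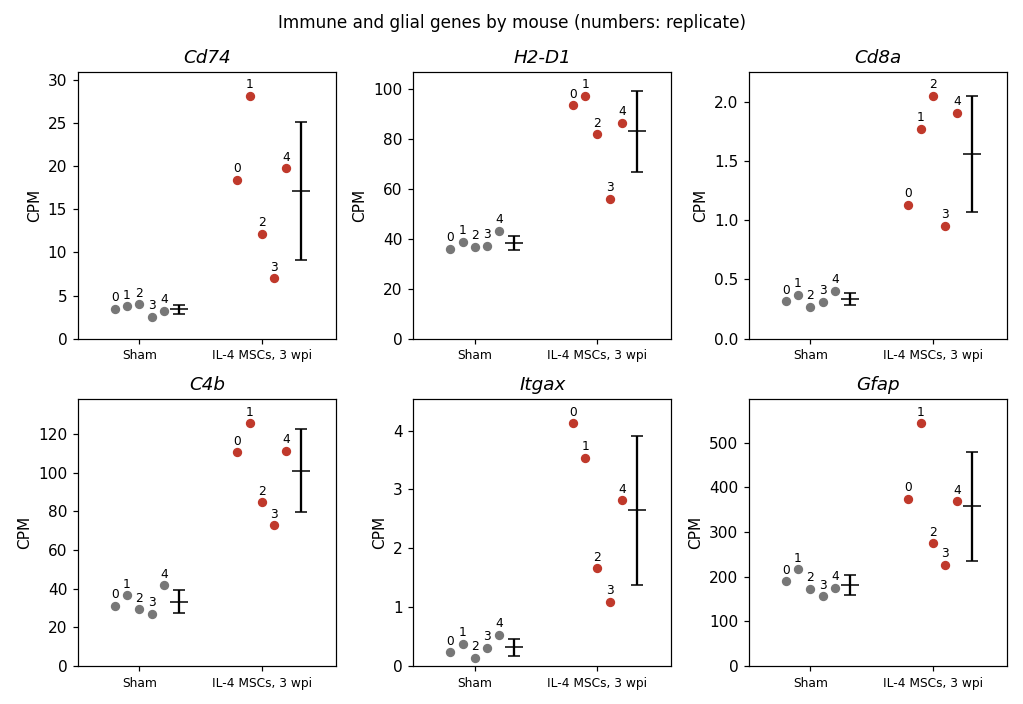
CPM of Cd74, H2-D1, Cd8a, C4b, Itgax and Gfap in each mouse (points, numbered by replicate), with the mean and SD of the group (n = 5). In all 6 genes each IL-4 MSC mouse lies above every sham mouse and IL-4 MSC replicate 3 is the lowest of its group, while it is the highest of its group for the striatal genes.

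Interferon-stimulated genes were higher in 9 of 32 and the GTPases induced by interferon gamma in 8 of 16, with medians of 0.49 and 0.68. All 32 and all 16 had a positive log2 fold change. With only the 2 groups in the fit 0 of the 32 and 2 of the 16 passed by edgeR, and with the striatal score as a covariate 3 and 5. The medians with that covariate were 0.55 and 0.76. Lgals3bp (chromosome 11, 118392751 to 118402092), a secreted glycoprotein, rose from 13.8 ± 1.57 CPM to 28.2 ± 10.2 CPM (SD, n = 5 each; log2 fold change 1.03, SE 0.17, adjusted p = 0.0011). Bst2, tetherin, which holds budding virus on the cell surface, rose by 1.00 (SE 0.19, adjusted p = 0.0034), although replicate 3, at 2.32 CPM, was inside the sham range. The GTPase gene Irgm2 rose by 0.63 (SE 0.13, adjusted p = 0.0047) and Gbp6 by 1.01 (SE 0.21, adjusted p = 0.0064), both without overlap.

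A response element bound by interferon-regulated factors has the letters GAAANNGAA, and it was sought on both strands of promoter windows of 300 bases from RefSeq (GRCm38), from 250 bases before the start site to 50 after. It was in 10 of the 21 genes with a window among the 29 members of the interferon and MHC class I lists that were higher, 47.6%. It was in 63.0% of the 27 other tested members with a window, and in 8.95% of the 13267 tested genes with a window. Counted by window instead of by gene, it was in 8.56% of all 32851. None of the windows of H2-D1, H2-K1, H2-Q4, H2-Q6 and H2-Q7 held these letters. The 180 bases before the start site are shown for the 4 higher members with the smallest p whose stretch held the element and overlapped no GENCODE exon, with the element in capitals, 5′ to 3′ on the strand of the gene. Bst2 is on the minus strand, chr8:71537473-71537652, Irgm2 on the plus strand, chr11:58214797-58214976, Igtp on the plus strand, chr11:58199376-58199555, and Trim30a on the minus strand, chr7:104465194-104465373.
Bst2: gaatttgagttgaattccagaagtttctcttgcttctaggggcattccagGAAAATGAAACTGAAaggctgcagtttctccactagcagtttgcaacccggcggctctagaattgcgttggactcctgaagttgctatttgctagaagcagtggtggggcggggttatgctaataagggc
Irgm2: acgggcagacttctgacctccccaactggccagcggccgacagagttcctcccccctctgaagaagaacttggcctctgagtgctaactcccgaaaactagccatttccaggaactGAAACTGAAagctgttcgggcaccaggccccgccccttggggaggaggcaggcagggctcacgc
Igtp: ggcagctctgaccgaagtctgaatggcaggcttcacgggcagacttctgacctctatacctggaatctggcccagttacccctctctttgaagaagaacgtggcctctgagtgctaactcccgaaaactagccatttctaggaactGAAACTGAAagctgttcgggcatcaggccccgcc
Trim30a: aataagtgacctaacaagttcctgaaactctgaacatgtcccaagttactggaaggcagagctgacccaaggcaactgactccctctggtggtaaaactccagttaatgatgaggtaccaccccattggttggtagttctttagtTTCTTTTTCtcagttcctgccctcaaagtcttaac
In Bst2 the capitals are 2 overlapping matches that begin 130 and 124 bases before the start site. In Irgm2 and Igtp, neighbouring GTPase genes whose stretches resemble each other, the match begins 64 and 34 bases before it. In Trim30a, an antiviral TRIM gene, the element is on the opposite strand, 35 bases before the start site. The members shown rose by 1.00, 0.63, 0.59 and 0.71.

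Phagocyte genes rose in part. Of 25 genes of reactive microglia and phagocytes, 16 were higher and none lower, with a median of 0.49. Itgax (chromosome 7, 128129547 to 128150657), the integrin CD11c, had 4.12, 3.54, 1.66, 1.09 and 2.81 CPM in IL-4 MSCs and 0.229, 0.369, 0.134, 0.309 and 0.525 CPM in Sham. It rose by 3.05 (SE 0.43, adjusted p = 1.46e-04). Clec7a, the beta-glucan receptor dectin-1, rose by 2.88 (SE 0.42, adjusted p = 1.68e-04), and Trem2, the microglial lipid receptor, by 0.78 (SE 0.15, adjusted p = 0.0032). Of 15 genes of homeostatic microglia, 5 were higher, with a median of 0.23. None of the 5 passed with the striatal score as a covariate in edgeR's fit, and 1 of the 15 did against the sham mice of week 3. The median of the 15 was 0.22 and 0.16 in those fits. Cx3cr1, the fractalkine receptor, rose by 0.34 (SE 0.075, adjusted p = 0.0092), from 42.4 to 48.5 CPM in Sham to 48.9 to 62.5 CPM in IL-4 MSCs. Tmem119 rose by 0.35 (SE 0.081, adjusted p = 0.0110). Among 33 myeloid receptors and related genes 14 were higher, 2 of them without overlap. By edgeR, 6 of the 33 were higher with the striatal score as a covariate and 3 against the sham mice of week 3. With only the 2 groups in the fit 1 was. The median of the 33 was 0.66 in the main fit, 0.60 with the covariate and 0.48 against the sham mice of week 3. The Toll-like receptor gene Tlr1 rose by 1.33 (SE 0.25, adjusted p = 0.0028) and the leukocyte glycoprotein gene Cd52 by 1.76 (SE 0.33, adjusted p = 0.0029). In Cd52 replicate 3, at 0.901 CPM, was below Sham replicate 4, at 1.08 CPM.

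Of 17 complement genes 6 were higher, with a median of 0.60. By edgeR, 2 of the 17 were higher with the striatal score as a covariate and 1 against the sham mice of week 3. With only the 2 groups in the fit 3 were. The median of the 17 was 0.64 with the covariate and 0.48 against the sham mice of week 3. C4b (ENSMUSG00000073418, chromosome 17, 34728380 to 34743882), complement component 4, had 111, 126, 84.7, 72.8 and 111 CPM in IL-4 MSCs and 31.1, 36.4, 29.3, 26.8 and 41.6 CPM in Sham. Its log2 fold change was 1.61 (SE 0.18, adjusted p = 4.06e-06), and reads may be shared with its paralogue C4a. C1qa, a subunit of the initiator C1q, rose by 0.75 (SE 0.16, adjusted p = 0.0077). Sham replicate 4 had 39.8 CPM of C1qa, above the 36.8 CPM of IL-4 MSC replicate 3, whereas the other sham mice had 24.6 to 25.6 CPM.

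Genes of lymphocytes were higher in part. Of 32 genes of T and killer cells, 14 were higher, 11 of them without overlap, and the median of the 32 was 1.07. Cd8a (ENSMUSG00000053977, chromosome 6, 71373427 to 71379173), a chain of the co-receptor of cytotoxic T cells, had 1.13, 1.77, 2.05, 0.955 and 1.91 CPM in IL-4 MSCs and 0.315, 0.369, 0.268, 0.309 and 0.401 CPM in Sham. It rose by 2.21 (SE 0.27, adjusted p = 1.34e-05). The chemokine receptor gene Cxcr6 rose by 2.35 (SE 0.34, adjusted p = 1.46e-04), with 0.382 to 0.762 CPM in IL-4 MSCs and sham values of 0.0926 to 0.155 CPM, near the floor of 3 counts. Cd3e, of the T cell receptor complex, had 10 to 19 counts in IL-4 MSCs and 0 to 5 in Sham. Among the 9 B cell genes tested 2 were higher, and the mean log2 CPM of this list overlapped between IL-4 MSCs (-0.64 to 0.19) and Sham (-1.03 to -0.46). Cd22, an inhibitory receptor of B cells that microglia can also make, rose by 0.77 (SE 0.16, adjusted p = 0.0064) without overlap. Ighm, the IgM heavy chain, had 23.1, 13.7, 24.6, 25.7 and 24.8 CPM in IL-4 MSCs and 12.1 to 19.0 CPM in Sham (0.69, SE 0.17, adjusted p = 0.0148), so replicate 1 was the lowest, as for striatal genes. Another 7 listed B cell genes had too few counts to be tested.

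Cd4, the co-receptor of helper T cells, is in the T cell list and was higher, by 1.95 on the log2 scale (SE 0.56, adjusted p = 0.0430), but it did not vary as the other members did; it was picked out after its values were seen. It had 11.4, 1.74, 12.4, 19.4 and 15.4 CPM in IL-4 MSC replicates 0 to 4 and 0.573, 0.492, 4.16, 5.17 and 5.50 CPM in Sham. Replicate 1 was the lowest of the IL-4 MSC mice and replicate 3 the highest, whereas for Cd8a replicate 3 was the lowest. Over the 24 libraries outside the comparison, Cd4 followed the striatal score with Pearson's r = 0.94, while r was -0.26 for Cd8a and 0.024 for Cd3e.

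Of 18 cytokines and chemokines 4 were higher. The chemokine gene Cxcl10, which attracts T cells, rose by 2.89 (SE 0.55, adjusted p = 0.0030), from 0.0738 to 0.172 CPM in Sham to 0.273 to 1.49 CPM in IL-4 MSCs. Its sham values were near the floor of 3 counts. Cxcl16, the ligand of the receptor that Cxcr6 encodes, rose by 0.97 (SE 0.20, adjusted p = 0.0053). Among genes that IL-4 induces in macrophages, none of 23 was higher by edgeR, with 6 at an unadjusted p under 0.05 and 2 higher with limma. Their median was 0.27, and 16 of the 23 had a positive log2 fold change. Mrc1, the mannose receptor CD206, had 6.31 to 7.22 CPM in IL-4 MSCs and 4.67 to 9.48 CPM in Sham (log2 fold change 0.0070, SE 0.19, adjusted p = 0.992). Arg1, arginase 1, had 0.78 (SE 1.28, adjusted p = 0.805), with 5 to 16 counts in IL-4 MSCs and 3 to 12 in Sham. The transcription factor gene Klf4 was the only member that changed in this test, and it fell by 0.53 (SE 0.13, adjusted p = 0.0183).

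Of 24 genes of reactive astrocytes, 3 were higher, with a median of 0.27. Gfap (chromosome 11, 102887336 to 102900912), the glial filament protein, had 374, 544, 275, 226 and 369 CPM in IL-4 MSCs and 190, 216, 173, 156 and 175 CPM in Sham. It rose by 0.97 (SE 0.18, adjusted p = 0.0025), and Vim, vimentin, by 0.75 (SE 0.18, adjusted p = 0.0140). In both genes the mice did not overlap, and replicate 1 was the highest of the IL-4 MSC mice.

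The immune and the striatal genes thus had different orders of the mice within IL-4 MSCs. Replicate 3 was the lowest of its group in 81 of the 96 immune genes that were higher and the highest in all 25 striatal genes. Replicates 0 and 1 were most often the highest in the immune genes, in 43 and 27 of 96. Of the 96 immune genes, 57 did not overlap between IL-4 MSCs and Sham, and among the 96 replicate 1 was within the sham range in 5 and replicate 3 in 34. The mean log2 CPM of the 250 immune genes was 1.84, 1.79, 1.59, 1.29 and 1.83 in IL-4 MSC replicates 0 to 4, and 0.96, 0.98, 0.99, 0.89 and 1.20 in Sham. All IL-4 MSC mice lay above all sham mice by this level, including replicate 1 with its low striatal score.

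**Figure D4:**
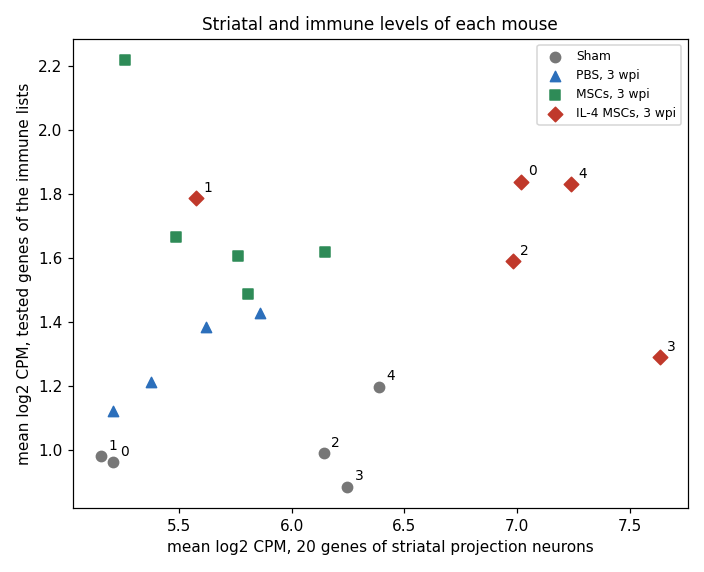
Mean log2 CPM of the 20 striatal genes (x axis) and of the 250 immune genes (y axis) in each sham mouse and each injured mouse of 3 wpi, by treatment; numbers are the replicates of Sham and IL-4 MSCs. IL-4 MSC replicate 3 has the highest striatal level, 7.63, and the lowest immune level of its group, 1.29, while replicate 1 has 5.58 and 1.79.

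The correlation of each gene with the striatal score was taken over the 24 libraries outside the comparison, both centred on their group means, as a description. Those libraries share the dissection and the TMM scaling, and genes are not independent replicates. An r of at least 0.7 was found for 1.79% of all genes tested, for 16.5% of the 472 higher genes, for 21 of the 25 higher striatal genes and for 1 of the 96 higher immune genes, which was Cd4. Of the 25 striatal genes, 19 are among those that make up the score, each left out of the score for its own r. Their r is therefore not independent of how the score was built. Among 347 higher genes in no list it was 16.1%. An r of at most -0.7 was found for 2.32% of all genes and 13.8% of the 260 lower genes, and 0 of the 472 higher genes. Of the 168 higher genes whose mice did not overlap, 3 had an r of at least 0.7, Spata13, Musk and Lrrc61, which were picked out after their values were seen. The score of IL-4 MSC replicate 1 lay inside the sham range, so genes that follow the score tend to overlap. No conclusion is drawn from this small count.

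**Figure D5:**
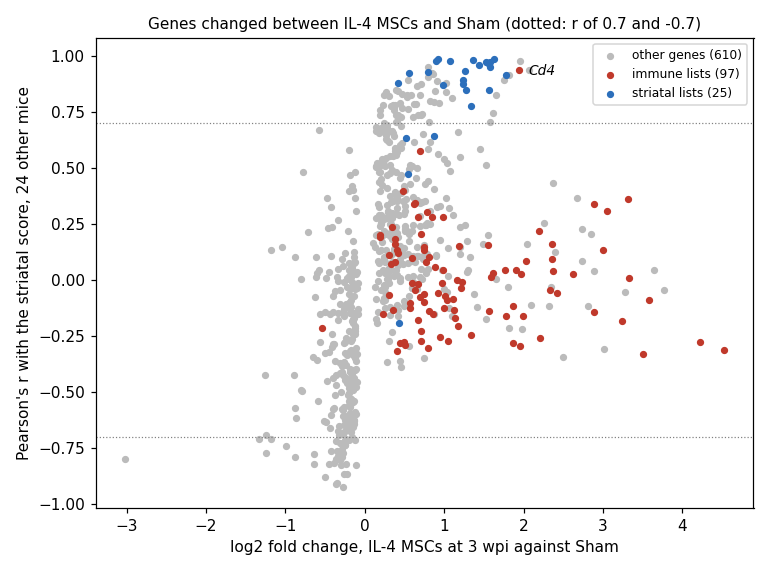
Log2 fold change of IL-4 MSCs at 3 wpi against Sham (x axis) and Pearson's r with the striatal score over the 24 other libraries (y axis) for the 732 changed genes; dotted lines mark r = 0.7 and -0.7. Of the higher striatal genes 21 of 25 lie above the upper line, and Cd4 is the immune gene that does. Of these 25, 19 are among the genes of the score.

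With the striatal score as a covariate in the fit, 52 of the 96 immune genes remained higher and no other immune gene was added, and the median over the 250 was 0.58. The count of all higher genes was then 81 and that of lower genes 21. None of the 42 striatal genes passed in either direction in edgeR's test, with 3 higher at an unadjusted p under 0.05. Lower ones at that p were not counted. The median of the 42 was -0.078, with 20 of these genes making up the score itself. Cd74 had 2.76 (adjusted p = 0.0020), H2-D1 1.24 (adjusted p = 2.90e-04), Cd8a 2.50 (adjusted p = 3.57e-05) and Cd4 -0.31 (adjusted p = 0.746). Drd1 and Drd2 had -0.17 and -0.29. Against the 3 sham mice of week 3, 42 of the 96 immune genes remained, and with only the 2 groups in the fit 32 did. Without IL-4 MSC replicate 4, 60 remained.

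IL-4 MSCs were also set against the other injured groups at 3 wpi. These comparisons share the IL-4 MSC or the sham libraries, so their values are given side by side, and genes chosen as higher against Sham are favoured in comparisons that reuse those libraries. The 96 immune genes lay at a median of 0.97 above Sham (log2 scale) with IL-4 MSCs, at 0.91 with unmodified MSCs and at 0.38 with PBS. In MSCs 63 of the 96 and 79 of all 250 immune genes were higher than Sham, beside 1.11% of all genes. In the 4 PBS mice 2 of the 96 and 2 of the 250 were higher than Sham, beside 4 of the 17131 genes tested. IL-4 MSCs against MSCs had a median of -0.0069 over the 96, with 2 higher, Cd4 and Ighm, beside 2.29% of all genes. Against PBS the median was 0.46, with 24 of the 96 and 26 of the 250 higher, beside 2.17% of all genes. Relative to PBS, Cd74 was higher by 1.58 (adjusted p = 0.0407) and -0.58 from MSCs (adjusted p = 0.428). Cd8a was 1.67 higher than in PBS (adjusted p = 0.0027) and -0.25 from MSCs (adjusted p = 0.616). H2-D1 was 0.84 higher than in PBS (adjusted p = 0.0067). Gfap, C4b and Itgax did not pass against PBS (-0.058, 0.37 and 0.67, adjusted p = 0.923, 0.304 and 0.365). In PBS these genes were themselves above Sham, by 1.03, 1.24 and 2.38 (adjusted p = 0.0273, 0.0040 and 0.0413). The 25 striatal genes lay at medians of 1.23 from Sham with IL-4 MSCs, -0.21 with unmodified MSCs and -0.34 with PBS. Of all 42 striatal genes, 31 were higher against PBS and 29 against MSCs, Drd1 by 2.10 (adjusted p = 0.0105) and 1.88 (adjusted p = 0.0106). With only the 2 groups in the fit, 0 of all genes passed in either comparison by edgeR, with 2431 at an unadjusted p under 0.05 against PBS and 2272 against MSCs.

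The 260 lower genes included 9 of 12 immediate early genes, which neurons switch on within minutes of activity, and the median of the 12 was -0.58. Fosb (ENSMUSG00000003545, chromosome 7, 19302696 to 19310051), a subunit of the transcription factor AP-1, had 9.88, 10.3, 10.5, 11.8 and 9.47 CPM in IL-4 MSCs and 15.7, 16.1, 15.5, 18.8 and 23.7 CPM in Sham. Every IL-4 MSC mouse was below every sham mouse, and it fell by 0.79 (SE 0.13, adjusted p = 8.30e-04). Fos fell by 1.04 (SE 0.19, adjusted p = 0.0027) and Egr2 by 1.19 (SE 0.22, adjusted p = 0.0024), also without overlap. With the striatal score as a covariate 6 of the 12 were lower, Fosb by 0.77. The median from Sham of the 12 was -0.37 in MSCs and -0.51 in PBS. IL-4 MSCs against PBS and against MSCs had medians of -0.20 and -0.17. The neurofilament gene Nefl fell by 0.26 (SE 0.065, adjusted p = 0.0183) and Nefh by 0.50 (SE 0.096, adjusted p = 0.0030), both without overlap. With that covariate neither passed in edgeR's fit, Nefl at -0.12 (adjusted p = 0.603) and Nefh at -0.33 (adjusted p = 0.161). Against the sham mice of week 3, Nefh passed (adjusted p = 0.0210) and Nefl did not (adjusted p = 0.140). Slc22a6, an organic anion transporter of the meninges, fell by 0.56 (SE 0.16, adjusted p = 0.0365), and did not pass with the covariate (-0.51, adjusted p = 0.381).

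Outside the lists, the higher genes with the largest change and no overlap were S100a4, Lag3, Hvcn1, Postn, Slc15a3 and Slc43a3. S100a4, a calcium-binding protein of leukocytes and fibroblasts, rose from 0.716 ± 0.0977 CPM to 2.02 ± 0.563 CPM (SD, n = 5 each; 1.49, SE 0.24, adjusted p = 6.64e-04). Lag3, an inhibitory receptor that binds class II molecules, had 10.2, 10.6, 8.91, 8.05 and 9.84 CPM in IL-4 MSCs and 3.29 to 4.79 CPM in Sham (1.32, SE 0.23, adjusted p = 0.0017). Hvcn1, the voltage-gated proton channel, rose by 1.29 (SE 0.17, adjusted p = 5.36e-05). Slc15a3, a peptide transporter of phagocyte lysosomes, rose by 1.05 and the transporter gene Slc43a3 by 1.03. Postn, the matrix protein periostin, had 4.71, 2.34, 3.38, 5.38 and 5.81 CPM in IL-4 MSCs and at most 2.25 CPM in Sham (1.20, SE 0.22, adjusted p = 0.0026). From Sham, Postn changed by 0.18 in MSCs and 0.14 in PBS, whereas S100a4 changed by 1.19 and 1.25 and Hvcn1 by 1.22 and 0.77. With the striatal score as a covariate in edgeR's fit, S100a4, Lag3 and Hvcn1 still passed (adjusted p = 0.0023, 0.0147 and 6.59e-04). Postn (0.77, adjusted p = 0.215), Slc15a3 (1.07, adjusted p = 0.0924) and Slc43a3 (0.88, adjusted p = 0.189) did not.

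The lower genes chosen in the same way were Fosl2, Dusp4, Bdnf, Tshz2, Kank4 and Nefh. The AP-1 gene Fosl2 fell by 0.88 (SE 0.17, adjusted p = 0.0032) and Dusp4, a phosphatase of MAP kinases, by 0.65 (SE 0.13, adjusted p = 0.0034). Bdnf, brain-derived neurotrophic factor, had 16.1, 25.5, 21.6, 13.5 and 16.8 CPM in IL-4 MSCs against 27.4 to 32.3 CPM in Sham (-0.64, SE 0.12, adjusted p = 0.0028). Its IL-4 MSC values were highest in replicate 1 and lowest in replicate 3, and its r with the striatal score over the 24 other libraries was -0.78. With that score as a covariate, Bdnf (adjusted p = 0.143) and Fosl2 (-0.62, adjusted p = 0.152) were not past the threshold. Dusp4, Tshz2 and Kank4 were not among the genes that passed that fit either. Tshz2 and Kank4 fell by 0.61 and 0.59, with r of 0.031 and -0.54.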

How the data were processed

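RNA-seq libraries of 34 mice were used, of which the 5 of IL-4 MSCs at 3 wpi and the 5 of Sham were compared; each library is a separate mouse. The authors trimmed reads with cutadapt 2.4, quantified GENCODE vM23 protein-coding transcripts with kallisto 0.46 and deposited estimated counts per gene, not normalized. The deposited TPM, also made by the authors with kallisto, served only for levels and are not printed. Another 63 deposited columns with the authors' own comparisons (fold changes, p and q values from sleuth 0.30) were not used. Estimated counts were rounded, and genes with low counts were removed by filterByExpr, leaving 17131 of 21203. Main tests used edgeR 4.0.16 (R 4.3.3): TMM scaling and quasi-likelihood tests, all 34 libraries in one fit by group, two-sided, with Benjamini-Hochberg adjustment over all genes tested and a threshold of 0.05. CPM were computed with TMM-scaled library sizes, and log2 CPM with a prior count of 2. Alternatives included DESeq2 1.42.0 and limma 3.58.1 (voom with quality weights). Scripts were tested on simulated data.

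Genes and lists were chosen with earlier results of these data known. Named genes were Drd1, Drd2, Adora2a and Ppp1r1b, the members with the smallest p of each list with a call (2 for immune, glial and striatal lists, otherwise 1), and the 6 higher and 6 lower genes outside the lists with the largest change, a mean of at least 1 CPM and no overlap of the mice. Further list members are named for their role and were chosen after their values were seen. The 20 pairs of replicates differed beyond sampling noise. Gene positions are from GENCODE vM21 (GRCm38); Gpr52 was not matched.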

Additional observations from a re-analysis of the deposited data

Results flagged for a closer look

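Single mice stood apart from the other 4 of their group in 10 of 158 groups of values examined by Dixon's test at the 95% level, where chance alone picks about 1 in 20. In Sham, replicate 4 was the high one in 7 of them. It had 39.8 CPM of C1qa (24.6 to 25.6 in the others), 16.5 CPM of Lgals3bp (12.4 to 13.5), 19.0 CPM of Ighm (12.1 to 13.7) and 39.2 CPM of Vim (29.3 to 32.1). Its mean log2 CPM was 2.75 for complement genes (2.22 to 2.33), 1.51 for myeloid receptors (0.78 to 0.85) and 2.81 for reactive astrocyte genes (2.36 to 2.44). Without this mouse, 585 genes were higher and 374 lower, and 108 immune genes were higher.

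In IL-4 MSCs, replicate 1 was low for Ighm, with 13.7 CPM against 23.1 to 25.7 in the others. Replicate 4 was high for Klf4, with 6.58 CPM against 5.48 to 5.71, and was still below every sham mouse. Replicate 3 was low for the genes of T and killer cells, with a mean log2 CPM of -1.03 against -0.37 to -0.27.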

How the results depend on the processing

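Of the 51 named genes, 17 kept their direction and their side of the threshold under all 20 alternatives and 46 never changed direction. With the striatal score as a covariate, the log2 fold changes of Drd1 (-0.17), Drd2 (-0.29), Adora2a (-0.27), Ppp1r1b (-0.080) and Tac1 (-0.30) turned negative, the score being built from striatal genes. That fit gave 81 higher and 21 lower genes, with 52 immune and 0 striatal genes higher. By edgeR, 4 genes changed against PBS and 0 against MSCs. At an unadjusted p under 0.05, 3 striatal genes were higher, and 829 and 1272 genes changed against PBS and MSCs. With only the 2 groups compared in the fit, 73 genes were higher and 29 lower, and 33 immune and 0 striatal genes were higher. By edgeR, 0 genes changed against PBS and 0 against MSCs. At an unadjusted p under 0.05, 30 striatal genes were higher, and 2431 and 2272 genes changed against PBS and MSCs. With the sham mice of week 3 only, 83 genes were higher and 82 lower by edgeR. Of the listed genes, 42 immune and 0 striatal ones were higher, with 25 striatal genes higher at an unadjusted p under 0.05. A minimum log2 fold change of 1 left 119 higher, 8 lower, 45 immune and 15 striatal genes. DESeq2 gave 401 lower genes and 767 changed against PBS. Limma gave 974 higher and 718 lower genes, 1686 changed against PBS and 1151 against MSCs. Beyond the arithmetic of fewer samples or a stricter rule, the cause was not tested. Leaving out 1 mouse at a time gave 173 to 865 higher, 60 to 859 lower, 60 to 108 immune and 8 to 31 striatal genes. Same-numbered mice of the 2 groups did not deviate together (r from -0.20 to 0.15), so replicate numbers do not pair them, and with the replicate block 576 genes were higher and 335 lower. Depth limits the lymphocyte genes: Cd3e had at most 19 counts in any of the 10 mice.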
